A study of Mus musculus with 8 samples.

Results

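The 35 genes described here belong to the molecular clock and to the response to glucocorticoids: 19 clock genes and clock outputs, the corticosteroid receptors Nr3c1 and Nr3c2, the steroid-activating enzyme gene Hsd11b1, and 13 genes that glucocorticoids are known to induce. They were matched by symbol from a list made with earlier results of these data known. All 35 were found among the 55401 genes of the deposited table. Every one of the 35 passed the expression filter and was tested among 16894 genes. The libraries came from mouse pups, with 4 given vehicle and 4 given PLX3397 by gavage from postnatal day 9 to day 15, and the hypothalamus was taken on day 19. PLX3397 blocks the receptor CSF1R, on which microglia depend, and each group held 2 females and 2 males, named F1, F2, M1 and M2. All pups were handled by gavage, and neither the strain nor the hour at which tissue was taken is stated in the labels.

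The molecular clock is a feedback loop. BMAL1 (encoded by Arntl) pairs with CLOCK or NPAS2 and switches on the Per, Cry, Nr1d and Dbp genes through E-box sequences, the PER and CRY proteins then block that pair, and the NR1D (REV-ERB) and ROR proteins repress and activate Arntl. Glucocorticoids, the adrenal steroids that rise with stress and once a day, bind the receptors encoded by Nr3c1 and Nr3c2, which act on response elements in DNA. Both systems meet in genes such as Per1, which glucocorticoids induce as well.

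Depth was 54115300 to 60001808 counts per vehicle library and 55900335 to 67487391 per PLX3397 library. All 13 hypothalamic marker genes passed the filter, although the sample source field reads brain. Summed microglial markers (15 genes) were at 377 to 394 CPM (counts scaled to library size) after vehicle and 40.8 to 73.7 CPM after PLX3397, with C1qa, Fcrls, Trem2 and Tyrobp at a count of 0 in at least 1 library. The 12 oligodendrocyte markers summed to 6568 to 9940 and 2211 to 5028 CPM. For both lists the lowest of the 8 libraries was PLX3397 M2. Pituitary markers summed to 3114 CPM in vehicle F1 and to 4.90 to 14.5 CPM in the other 7 libraries. In whole tissue, fewer cells of a type and less RNA per cell cannot be told apart.

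Promoters are shown for the metallothionein pair Mt1 and Mt2, neighbours on chromosome 8 that were both higher on average after PLX3397, and for Per1, which went opposite ways in females and males. The sequences are the 250 bases before each RefSeq start (build GRCm38.p6). Capitals mark TGCACNC or TGCGCNC, the 2 forms of the metal response element core, in Mt1 and Mt2, and the E-box CACGTG in Per1, each searched on both strands.
Mt1, chr8:94178839-94179088, forward strand: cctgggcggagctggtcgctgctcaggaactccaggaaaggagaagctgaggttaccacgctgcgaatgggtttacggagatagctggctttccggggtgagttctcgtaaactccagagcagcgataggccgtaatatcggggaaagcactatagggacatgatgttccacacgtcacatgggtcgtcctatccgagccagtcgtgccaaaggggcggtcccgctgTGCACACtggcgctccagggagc
Mt2, chr8:94172368-94172617, forward strand: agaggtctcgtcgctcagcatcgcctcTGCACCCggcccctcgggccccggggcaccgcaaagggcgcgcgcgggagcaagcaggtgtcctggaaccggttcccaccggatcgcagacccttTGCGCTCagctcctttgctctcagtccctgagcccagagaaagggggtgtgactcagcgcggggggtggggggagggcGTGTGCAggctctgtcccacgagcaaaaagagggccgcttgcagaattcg
Per1, upstream start, chr11:69098699-69098948, forward strand: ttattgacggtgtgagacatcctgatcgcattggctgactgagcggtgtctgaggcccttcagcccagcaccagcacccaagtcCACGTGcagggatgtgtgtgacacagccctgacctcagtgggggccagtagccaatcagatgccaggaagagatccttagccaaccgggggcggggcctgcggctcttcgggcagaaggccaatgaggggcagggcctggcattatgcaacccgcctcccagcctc
Per1, downstream start, chr11:69099902-69100151, forward strand: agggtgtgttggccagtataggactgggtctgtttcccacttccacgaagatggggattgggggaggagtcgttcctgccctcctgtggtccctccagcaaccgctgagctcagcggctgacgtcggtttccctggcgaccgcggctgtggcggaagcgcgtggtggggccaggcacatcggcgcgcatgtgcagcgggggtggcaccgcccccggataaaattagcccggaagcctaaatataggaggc

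The Mt2 window held 3 matches to the metal response element core and the Mt1 window 1, and 21.4% of all windows of this length in the RefSeq table held at least 1. That core was also in 12 of the 23 windows of clock members (11 of 17 genes). Of the 21 windows of glucocorticoid-induced members 3 held it (Ddit4, Mt1 and Mt2). Mt1 and Sgk1 were, of the clock and induced members, those with a match to ACANNNTGT, the core of the glucocorticoid response element, which 5.84% of all windows held. An E-box was found for 5 of the 17 clock members with a window (Per1, Cry1, Ciart, Bhlhe41 and Tef) and for 2 of the 12 glucocorticoid-induced members (Fkbp5 and Sgk1), against 6.02% of all windows, where some genes have several windows. The upstream start of Per1 had 1 E-box and the downstream start 0. These are matches of letters only. Elements outside the 250 bases before each start were not searched for. The counts for Mt1 and Mt2 thus depend on where each window ends and are not counts for the whole promoter. In all, 31 of the 35 members matched the table, without Per2, Bhlhe40, Nr3c1 and Zbtb16.

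Across the 8 libraries, none of the 35 genes passed the test of PLX3397 against vehicle over all genes. Changes are given as log2 fold changes of PLX3397 against vehicle with their standard error, from edgeR's quasi-likelihood test with sex as a covariate and p-values adjusted over the 16894 genes (Benjamini-Hochberg, threshold 0.05). The count of members called was 0 of 35, where 2.14% of all tested genes were called, 0.308% higher and 1.83% lower. The smallest adjusted p among the members was 0.104, for Mt1. At an unadjusted p under 0.05 there were 8 members, 7 higher and 1 lower (22.9% of the members), beside 16.2% of all tested genes, 7.24% higher and 9% lower. DESeq2 called 3 members, all higher: Mt1 (adjusted p = 0.00822), Plin4 (0.0162) and Zbtb16 (0.0338). That tool called 6.51% of all tested genes, 2.03% higher and 4.47% lower. The 4 PLX3397 libraries lay apart from the 4 vehicle libraries in 3 members, or 8.57%, where 11.2% of all tested genes did so, 4.85% higher and 6.32% lower. Those 3 were Mt1, Plin4 and Bhlhe40, all higher after PLX3397.

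Side by side, and with no test of the difference between the lists, most clock genes lay close to 0 and most glucocorticoid-induced genes above it. The 19 clock genes had a median log2 fold change of 0.06, and 16 of them were positive. The 13 glucocorticoid-induced genes had a median of 0.31, with 11 positive, while all tested genes had a median of -0.00, with 49.4% positive. At an unadjusted p under 0.05 there were 2 of the 19 clock genes, both higher, and 6 of the 13 induced genes, 5 higher and 1 (Ddit4) lower, beside 16.2% of all tested genes. Other measures moved with the treatment as well. Of 9 meningeal fibroblast markers 2 rose (median 0.35; summed level 262 to 374 CPM after vehicle, 365 to 518 CPM after PLX3397). Of 9 neuronal markers 1 rose (summed level 4558 to 4702 and 4834 to 5219 CPM). Of 9 endothelial markers 1 rose, with a median of 0.04 and overlapping sums (227 to 264 and 244 to 268 CPM). The 9 astrocyte markers gave 0 calls, with a median of 0.04 and overlapping sums (3184 to 3814 and 3400 to 3672 CPM). Mitochondrial genes took 4.51% to 4.88% and 4.87% to 5.36% of counts. The part of these in the induced genes' values was not tested. The members were chosen with results of these data known, so these counts are a description.

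**Figure D1:**
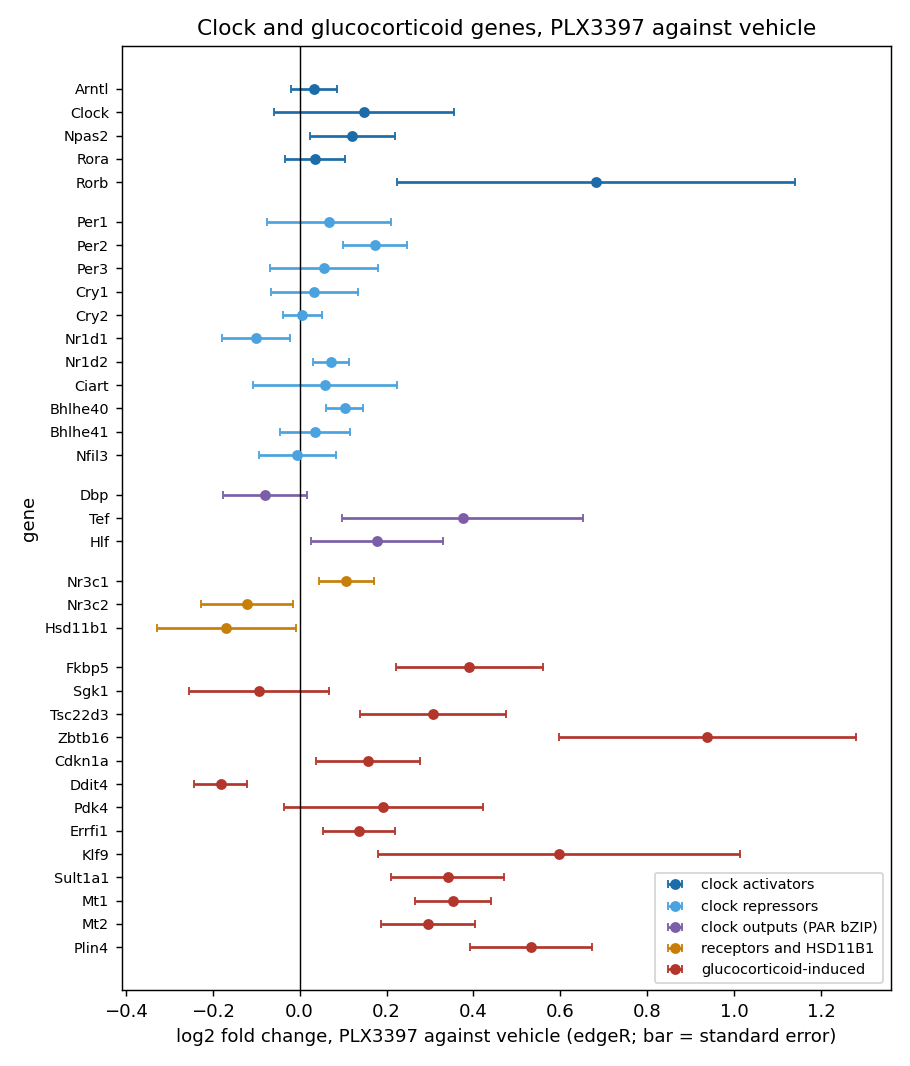
Log2 fold change of PLX3397 against vehicle for each of the 35 genes (horizontal axis), grouped by role, with bars for the standard error (edgeR, 8 libraries). Most clock genes lie close to 0 (median 0.06), the glucocorticoid-induced genes lie mostly to the right (median 0.31), and the widest bars are those of Rorb and Klf9.

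Of the 5 activators of the clock, 0 passed, and all 5 had a positive sign. Arntl, which encodes BMAL1, was at 30.7, 33.1, 30.6 and 32.7 CPM in vehicle F1, F2, M1 and M2 and at 31.6, 31.9, 33.4 and 33.2 CPM in PLX3397 F1, F2, M1 and M2; values are given in this order throughout. The groups overlapped, and the difference was 0.03 ± 0.05 (edgeR adjusted p = 0.821). Npas2, a partner of BMAL1 that can replace CLOCK, had 0.12 and Rora, an activator of Arntl, 0.04 (adjusted p = 0.599 and 0.85).

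Rorb and Clock were uneven among the vehicle libraries themselves. Rorb, a ROR family receptor found in sensory and clock regions of the brain, was at 13.1, 34.6, 8.53 and 38.6 CPM in vehicle and at 37.6, 37.7, 36.7 and 40.0 CPM in PLX3397 libraries. Vehicle F1 and M1 were low and the other 6 libraries close together, which made a vehicle range of 4.52-fold and a fold change of 0.68 ± 0.46 (edgeR adjusted p = 0.52). The fold change was 0.39 without vehicle M1 and 1.21 without vehicle M2. Clock, which encodes the usual partner of BMAL1, was at 49.6, 64.4, 34.8 and 66.2 CPM in vehicle and 65.1, 51.1, 54.8 and 67.1 CPM in PLX3397 libraries (0.15 ± 0.21, adjusted p = 0.785). Its lowest value was again in vehicle M1, and without that library its fold change was -0.03. It was 0.065 without PLX3397 M2 and 0.24 to 0.33 without PLX3397 F2, vehicle F2 or vehicle M2.

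Of the 11 repressors of the loop 0 passed, and 9 had a positive sign. Per2, one of the period proteins that close the loop, was at 49.2, 42.9, 40.9 and 38.1 CPM in vehicle and 47.4, 48.4, 49.7 and 47.1 CPM in PLX3397 libraries. All 4 PLX3397 values lay above the vehicle mean of 42.8 CPM, yet vehicle F1 was higher than 3 of them, and the difference was 0.17 ± 0.07 (edgeR adjusted p = 0.301). Bhlhe40 (DEC1), a repressor that competes for E-boxes (chromosome 6, 108660629 to 108666925, mm10), was at 58.4, 61.1, 58.6 and 57.3 CPM in vehicle and 62.6, 63.0, 65.5 and 62.0 CPM in PLX3397 libraries. The groups did not overlap, but the step was small, at 1.07-fold (0.10 ± 0.04, adjusted p = 0.29).

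The REV-ERB genes, whose products silence Arntl, overlapped between the groups. Nr1d1 was at 72.7, 83.7, 81.2 and 80.4 CPM in vehicle and 68.0, 84.0, 71.9 and 72.7 CPM in PLX3397 libraries (-0.10 ± 0.08, edgeR adjusted p = 0.583). Nr1d2 was at 98.4, 106, 106 and 99.2 and at 105, 106, 110 and 110 CPM (0.07 ± 0.04, adjusted p = 0.454). One gene thus had a negative and its close relative a positive sign, and both pairs of groups overlapped. Cry1 and Cry2, the cryptochromes that hold CLOCK and BMAL1 inactive, had 0.03 and 0.01 (adjusted p = 0.906 and 0.964). Per3, a period gene with a lesser part in the loop, had 0.06 and Bhlhe41 (DEC2) 0.04 (adjusted p = 0.867 and 0.872), and Nfil3, a repressor at D-box sites, had -0.01 (adjusted p = 0.985). The whole span of Per3 lies within Camta1 on the same strand, whose mean count was 25318 against 3759 for Per3, so its counts are uncertain.

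The PAR bZIP genes are direct outputs of the clock. Dbp, the output gene with the strongest daily swing in many tissues, was at 32.8, 41.6, 41.2 and 38.7 CPM in vehicle and 32.4, 38.5, 40.2 and 34.9 CPM in PLX3397 libraries (-0.08 ± 0.10, edgeR adjusted p = 0.747). The lowest library of each group was F1, and Dbp overlaps Sphk2 over 14.4% of its span. Tef was at 107, 262, 253 and 188 CPM in vehicle and 290, 274, 284 and 203 CPM in PLX3397 libraries (0.37 ± 0.28, adjusted p = 0.566). The fold change was 0.13 without vehicle F1, its lowest library, and 0.61 without vehicle F2. Hlf was highest in M2 of both groups, at 77.9 and 88.7 CPM, and had 0.18 (edgeR adjusted p = 0.62). Its fold change was 0.062 without PLX3397 M2, 0.059 without vehicle M1 and 0.30 without vehicle M2.

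**Figure D2:**
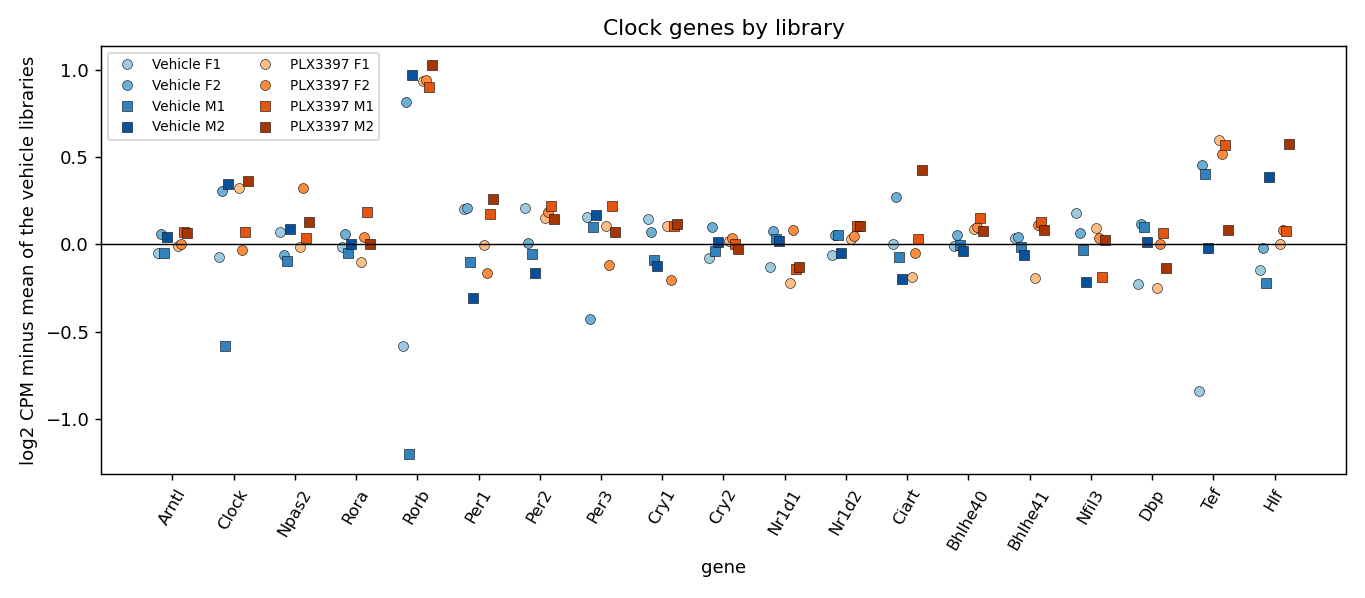
Level of each of the 19 clock genes in each library, as log2 CPM minus the mean of the vehicle libraries (vertical axis; blue vehicle, orange PLX3397; circles females, squares males). Arntl, Cry2, Nr1d2 and Bhlhe40 stay close to the line, while Rorb, Clock and Tef have 1 or 2 vehicle libraries far below it.

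Large steps between libraries of a group were not limited to these genes. Of 10952 tested genes with a mean of at least 10 CPM, 4.59% had a vehicle range of 2-fold or more, and 4.67% had such a range among PLX3397 libraries. Of the 31 members at that level, 3 had it among vehicle libraries (Rorb, Tef and Klf9) and 1 among PLX3397 libraries (Zbtb16). Klf9, a zinc finger gene that both glucocorticoids and thyroid hormone induce, was at 114, 38.0, 99.5 and 31.8 CPM in vehicle and 109, 97.1, 106 and 116 CPM in PLX3397 libraries. Here vehicle F2 and M2 were the low ones, the pair in which Rorb was high, and the fold change was 0.60 ± 0.42 (edgeR adjusted p = 0.538). It was 1.03 without vehicle F1 and 0.95 without vehicle M1, and 0.38 without vehicle F2 and 0.32 without vehicle M2. The deposited table gives genes, not transcripts, and the reason for these steps was not tested.

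**Figure D3:**
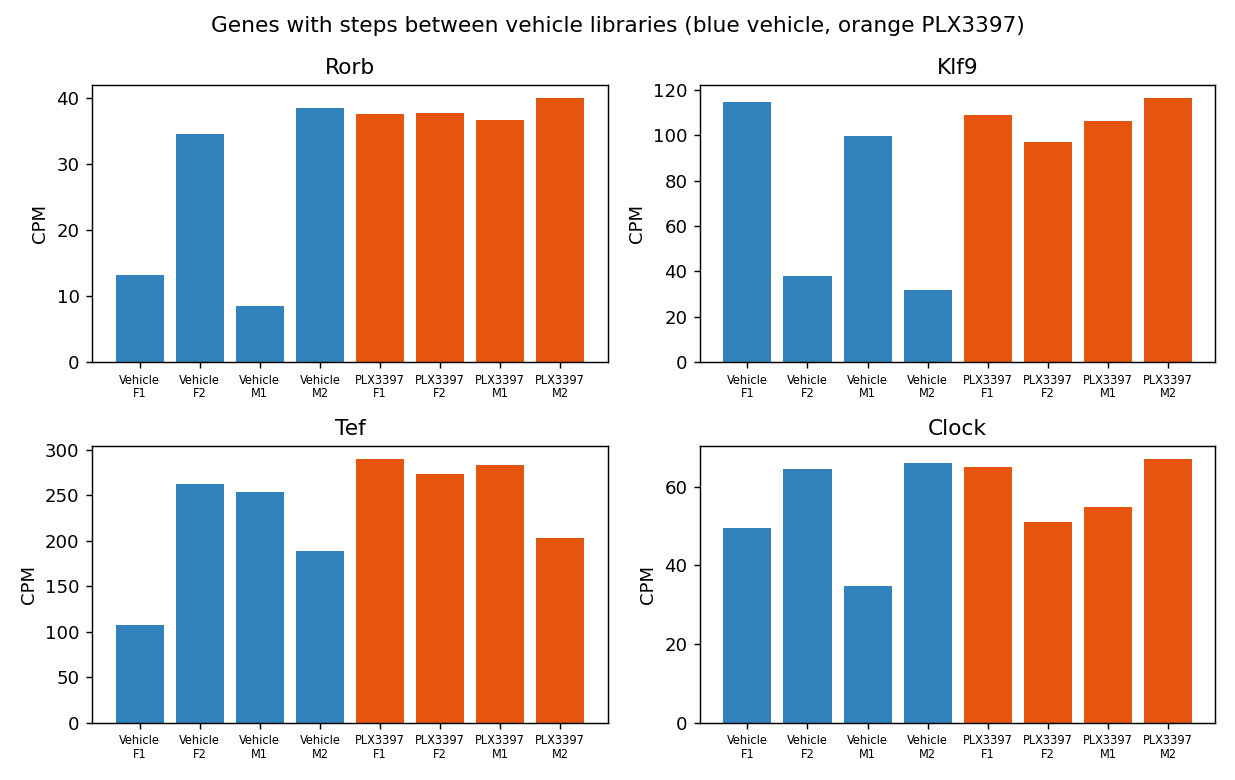
Level in CPM (vertical axis, from 0) of Rorb, Klf9, Tef and Clock in each of the 8 libraries (blue vehicle, orange PLX3397). Rorb is low in vehicle F1 and M1 (13.1 and 8.53 CPM) and Klf9 in vehicle F2 and M2 (38.0 and 31.8 CPM), while the PLX3397 bars of each of these 2 genes are nearly level.

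Both receptor genes were expressed in every library, and neither passed the test. Nr3c1, the glucocorticoid receptor, was at 87.1, 86.0, 88.8 and 77.9 CPM in vehicle and 94.1, 83.3, 96.7 and 92.0 CPM in PLX3397 libraries (0.11 ± 0.06, edgeR adjusted p = 0.468). Nr3c2, the mineralocorticoid receptor, which binds the same hormone with higher affinity, was at 21.7, 25.4, 26.7 and 27.3 and at 25.2, 18.2, 24.6 and 25.0 CPM (-0.12 ± 0.11, adjusted p = 0.634). Both sets of values overlapped. Per length, on the authors' FPKM scale, the vehicle mean was 9.67 for Nr3c1 and 3.41 for Nr3c2. Hsd11b1, whose enzyme regenerates active glucocorticoid within cells, had -0.17 ± 0.16 (adjusted p = 0.665). Its lowest value, 7.03 CPM, was in PLX3397 M2. The fold change was -0.039 without that library, -0.058 without vehicle M2 and -0.29 without PLX3397 F1, and its whole span lies opposite Lamb3, so its counts are uncertain.

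Of the genes that glucocorticoids induce, the metallothioneins lay highest per length, on the FPKM scale. In CPM the vehicle mean of Mt2 was 75.7, below the 80.1 of Tsc22d3. Mt1 and Mt2 encode small cysteine-rich proteins that bind zinc and copper. Their vehicle means were 95.6 and 113 FPKM, against 0.707 FPKM for Plin4, the lowest of the 35. Mt1 (chromosome 8, 94179082 to 94180327) was at 143, 135, 114 and 152 CPM in vehicle and 171, 185, 176 and 163 CPM in PLX3397 libraries. Every PLX3397 library was above every vehicle library, a difference of 1.28-fold (0.35 ± 0.09, edgeR adjusted p = 0.104). Without vehicle M2, the highest of the vehicle libraries, it passed the edgeR test (0.44, adjusted p = 0.0436), where 0.959% of all tested genes did. Leaving out any other 1 library gave no call for Mt1. Over all alternatives its adjusted p ran from 0.00822, with DESeq2, to 0.296. Mt2 (chromosome 8, 94172664 to 94173568) was at 81.6, 72.5, 65.9 and 83.0 and at 77.02, 93.9, 96.9 and 105 CPM (0.30 ± 0.11, adjusted p = 0.238). Its groups overlapped through PLX3397 F1. Mt1 and Mt2 are paralogues, and Mt2 overlaps the antisense gene Gm45774 over 82.8% of its span, so how shared reads were counted is uncertain.

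Plin4, a lipid droplet coat protein gene (chromosome 17, 56100591 to 56109803), was low but separate between the groups. It was at 5.33, 5.04, 5.73 and 4.46 CPM in vehicle and 6.95, 8.37, 6.22 and 8.21 CPM in PLX3397 libraries, 1.45-fold higher (0.53 ± 0.14, edgeR adjusted p = 0.121; 0.0162 with DESeq2). It overlaps Hdgfl2 by 17 bases. Sult1a1, a sulfotransferase gene, was at 17.2, 14.9, 16.3 and 22.3 and at 20.9, 24.5, 20.5 and 23.2 CPM (0.34 ± 0.13, adjusted p = 0.257). Vehicle M2 was higher than 2 of the PLX3397 libraries.

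The genes most used as readouts of glucocorticoid action overlapped between the groups. Fkbp5, a co-chaperone that dampens the glucocorticoid receptor (chromosome 17, 28399094 to 28517527), was at 47.2, 37.1, 36.2 and 37.6 CPM in vehicle and 42.7, 53.6, 43.3 and 67.6 CPM in PLX3397 libraries. The difference was 0.39 ± 0.17 (edgeR adjusted p = 0.31), and without PLX3397 M2 it was 0.21. Zbtb16, the zinc finger gene also called PLZF (chromosome 9, 48654297 to 48836222), had the widest fold of the 35, at 24.4, 18.6, 13.3 and 14.1 and at 17.7, 41.9, 25.7 and 47.0 CPM (0.94 ± 0.34, adjusted p = 0.235; 0.0338 with DESeq2). In both genes PLX3397 M2 and F2 were the 2 highest libraries and vehicle F1 the highest of its group. Without PLX3397 M2 the fold change of Zbtb16 was 0.65. By sex, edgeR gave 0.47 in females and 1.41 in males (adjusted p = 0.782 and 0.242), with an adjusted p of 0.863 for the difference. DESeq2 called Zbtb16 in males (adjusted p = 0.00657), where it called 4.94% of all tested genes.

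Tsc22d3 (GILZ), which carries part of the anti-inflammatory action of glucocorticoids, was at 92.8, 84.6, 86.3 and 56.6 CPM in vehicle and 114, 88.5, 79.5 and 112 CPM in PLX3397 libraries (0.31 ± 0.17, edgeR adjusted p = 0.429). Vehicle M2 was low and PLX3397 F1 and M2 were high, and the fold change was 0.17 without vehicle M2 and 0.18 without PLX3397 M2. Sgk1, a kinase of ion transport that glucocorticoids induce quickly, was at 44.4, 33.6, 37.1 and 35.5 and at 41.5, 27.9, 30.2 and 41.4 CPM (-0.09 ± 0.16, adjusted p = 0.83). Ddit4 (REDD1), an inhibitor of mTOR signalling, was the induced gene with a negative sign and an unadjusted p under 0.05. It was at 67.1, 62.1, 58.2 and 59.95 and at 59.6, 51.5, 52.1 and 54.8 CPM (-0.18 ± 0.06, adjusted p = 0.199), with overlap through PLX3397 F1.

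The other 3 induced genes were Cdkn1a, the cell cycle inhibitor p21 (0.16), Pdk4, a kinase that limits glucose oxidation (0.19), and Errfi1, a feedback inhibitor of the EGF receptor (0.14), with edgeR adjusted p from 0.475 to 0.737. Without PLX3397 M2 these values were 0.031, 0.053 and 0.069. Pdk4 was 0.45 without vehicle F1, 0.095 without vehicle F2 and 0.071 without vehicle M2, and Errfi1 was 0.086 without vehicle M1. PLX3397 M2 was the highest of all 8 libraries in 6 of the 13 induced genes and vehicle F1 in 3, while vehicle F1 was the highest of its own group in 8. The median over the 13 genes, as log2 CPM against the vehicle mean, was 0.48 in PLX3397 M2, 0.14 to 0.32 in the other PLX3397 libraries, 0.23 in vehicle F1 and -0.10 to -0.02 in the other vehicle libraries. Vehicle F1 is the library with pituitary transcripts and PLX3397 M2 the one with the least microglial and oligodendrocyte transcripts, and the part of either in these values was not tested. The median fold change of the 13 genes was 0.36 without vehicle F1, 0.21 without PLX3397 M2 and 0.31 without both libraries.

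**Figure D4:**
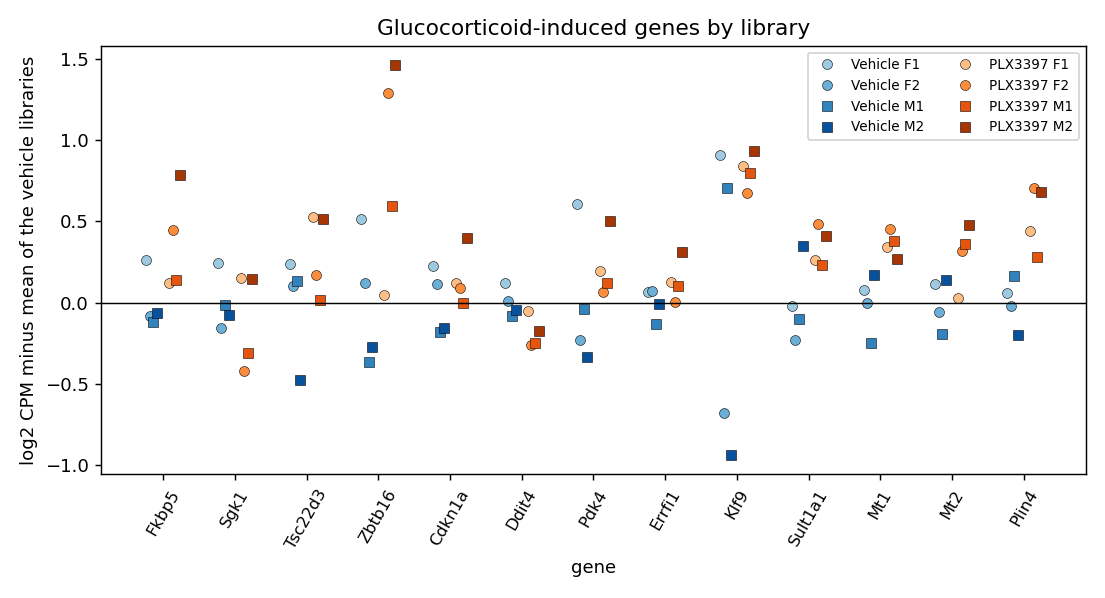
Level of each of the 13 glucocorticoid-induced genes in each library, as log2 CPM minus the mean of the vehicle libraries (vertical axis; blue vehicle, orange PLX3397; circles females, squares males). The orange points of Mt1 and Plin4 lie above every blue point, and PLX3397 M2 is on top in Fkbp5, Zbtb16, Cdkn1a, Errfi1, Klf9 and Mt2.

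Within each sex none of the members passed. The model with 4 groups called 0 of 35 in females (0.361% of all tested genes), 0 in males (1.54%) and 0 for the difference between the sexes (0.077%). At an unadjusted p under 0.05, 2 members (Per1 and Ciart) differed between the sexes, beside 6.01% of all tested genes. The median over the 35 members was 0.04 in females and 0.18 in males, with 20 and 28 positive. For the 13 glucocorticoid-induced genes the median was 0.19 in females and 0.42 in males, with 8 and 11 positive. For the 19 clock genes it was 0.01 and 0.14, with 10 and 16 positive. Over all 16894 tested genes it was 0.0014 and -0.00049, with 8509 and 8419 positive. Females and males, compared with treatment as a covariate, also gave 0 of 35 (0.0592% of all tested genes), with 0 at an unadjusted p under 0.05, beside 4.99%.

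Per1, the period gene that both light and glucocorticoids induce (chromosome 11, 69095217 to 69109960), had the smallest p for a difference between the sexes. It was at 107, 107, 86.6 and 75.0 CPM in vehicle and 92.7, 83.0, 105 and 111 CPM in PLX3397 libraries. Both PLX3397 females lay below both vehicle females (-0.29), and both PLX3397 males lay above both vehicle males (0.42). Pooled over the sexes the fold change was 0.07 ± 0.14 (edgeR adjusted p = 0.863). The effect in females minus that in males was -0.71 ± 0.13, with an adjusted p of 0.297 in edgeR and 0.00122 in DESeq2, which called 144 genes (0.852%) for that difference. DESeq2 also called Per1 in males (0.43, adjusted p = 0.00372). With Zbtb16 that made 2 of 35 members in males, near the 4.94% (834 genes) of all tested genes.

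Ciart (CHRONO), a repressor of CLOCK and BMAL1, was the other member that separated opposite ways. Its levels were 9.63, 11.6, 9.15 and 8.38 CPM in vehicle and 8.44, 9.29, 9.83 and 12.9 CPM in PLX3397 libraries (-0.26 in females, 0.38 in males; edgeR adjusted p of the difference 0.819). The whole span of Ciart lies opposite C920021L13Rik, whose mean count was 178.8 against 585.4 for Ciart, so its counts are uncertain. These 2 genes are 5.71% of the members, where 4.57% of all tested genes separated opposite ways in the 2 sexes, 2.23% with females lower and males higher as here. Immediate early genes, which nerve cell activity induces as it does Per1, had a median of -0.21 in females and 0.30 in males over 15 genes. Their summed level was 242 CPM in vehicle M2 and 344 to 438 CPM in the other 7 libraries. Their part in the Per1 values was not tested.

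**Figure D5:**
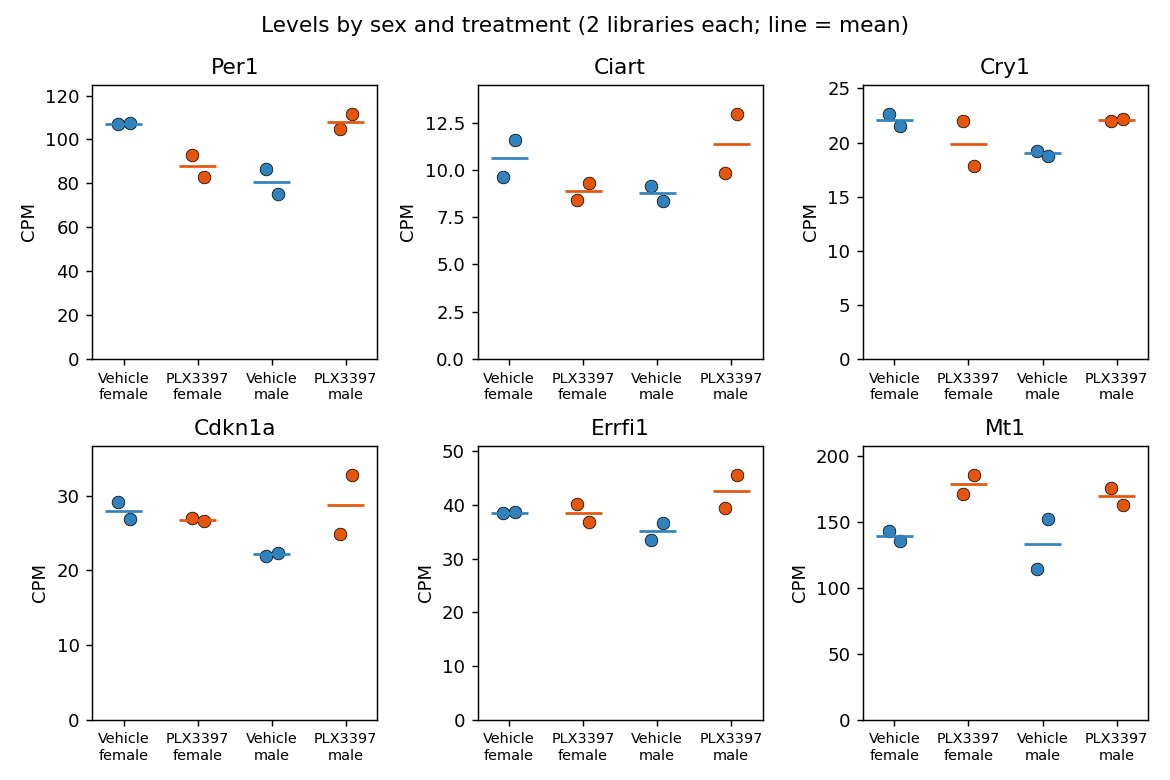
Level in CPM (vertical axes, from 0) of Per1, Ciart, Cry1, Cdkn1a, Errfi1 and Mt1 in vehicle (blue) and PLX3397 (orange) libraries of each sex, 2 libraries each, with a line at their mean. Per1 is lower in PLX3397 females and higher in PLX3397 males than in vehicle of the same sex, whereas Mt1 is higher after PLX3397 in both.

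Other genes of the same pathways, from further lists, gave 1 call over the 8 libraries. Of 20 further clock genes, 0 passed and the median was 0.02. Sfpq, an RNA-binding partner of the PER complex, was at 110 ± 6.26 and 129 ± 4.30 CPM (SD, n = 4 each; 0.24 ± 0.05, edgeR adjusted p = 0.0644), and Fbxw11, an adaptor for PER breakdown, and Arntl2, a paralogue of Arntl, had 0.09 and 0.30 (adjusted p = 0.291 and 0.292).

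Of 23 tested genes among 25 further glucocorticoid-responsive ones, 1 rose and 0 fell, with a median of 0.12. That gene was Fam107a, whose product binds actin. It was at 250 ± 18.3 CPM after vehicle and 389 ± 26.5 CPM after PLX3397 (SD over 4 libraries each), higher in 4 of 4 libraries (0.64 ± 0.07, edgeR adjusted p = 0.00563). It was listed with its result in these data already known. Over the 23 tested genes of this list the median was -0.05 in females and 0.13 in males, with 11 and 14 positive. Mfsd2a, a lipid transporter of the blood-brain barrier, had -0.65 and Klf15, a zinc finger gene of metabolism, 0.31 (adjusted p = 0.117 and 0.176).

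Receptor chaperones, coregulators and steroid enzymes gave 0 calls among 13 tested of 15. Hsp90aa1 and Hsp90ab1, the chaperones that hold the glucocorticoid receptor ready for hormone, had 0.15 and 0.11, and Fkbp4, a co-chaperone that aids its transport, had 0.16 (edgeR adjusted p = 0.099, 0.124 and 0.186). Among 9 tested of 10 stress axis genes 0 passed. Crh, the peptide that starts the stress response, was at 2.53 ± 0.560 and 2.40 ± 0.819 CPM (SD, n = 4 each; adjusted p = 0.864), and Crhr2, a receptor of its family, was at 5.53 ± 0.638 and 9.69 ± 2.54 CPM (0.81 ± 0.21, adjusted p = 0.111). Crhbp, the binding protein of Crh, had 0.24 and Ucn3, a ligand of Crhr2, -0.86 (adjusted p = 0.414 and 0.35).

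Markers of the suprachiasmatic nucleus, the brain's main clock within the hypothalamus, were present in both groups. Of the 13 tested of 14, 0 passed, and the median was -0.24. Their summed level was 412 to 591 CPM in vehicle and 323 to 646 CPM in PLX3397 libraries, of which the vasopressin gene Avp made up 93.6 to 377 CPM. Six6 and Rgs16 had -0.38 and -0.24 and the peptide gene Grp -0.27 (edgeR adjusted p = 0.321 to 0.366). That list also holds Rorb and Per3. Of the 15 immediate early genes 0 passed, with Arc, a synaptic gene, at -0.34, Fosb, an AP-1 subunit, at 0.86 and Ier2 at -0.30 (adjusted p = 0.146, 0.399 and 0.401).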

How the data were processed

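RNA sequencing libraries of 8 mouse hypothalami were compared, 4 vehicle and 4 PLX3397, 2 females and 2 males in each. Nothing in the labels says whether litters were shared, so p-values measure the spread between these samples. Ribosomal RNA was removed by probe capture and cDNA was made from random primers, per the labels' protocols. The deposited table gives whole-number counts per gene, raw per the file headers, and the authors' FPKM values. Named in the submitters' processing notes, without roles, are mm10, bcl2fastq 2.0, HISAT2, StringTie, DESeq2 and limma. For the counter, annotation release and strand setting, the sources used here give nothing.

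Counts were tested with edgeR 4.0.16 in R 4.3.3 (quasi-likelihood F-test, two-sided, TMM scaling, installed defaults) over 16894 genes (mean FPKM 0.5 or more). Levels are CPM with TMM scaling. Standard errors are |log2 fold change|/√F. Alternatives were other filters and scalings, no sex covariate, the replicate label as a block, DESeq2 1.42.0, limma-trend 3.58.1 on log2(FPKM + a pseudocount of 0.5, 0.1 or 1), other edgeR settings and leaving out libraries. The tests were checked on simulated counts. Libraries within a group all differed beyond sampling noise. Overlapping and antisense genes can share reads. Such a gene with a mean count of at least 100 overlapped 9 members. These were Bhlhe41, Ciart, Clock, Dbp, Hsd11b1, Mt2, Per3, Plin4 and Sult1a1.

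The members, lists and roles were chosen with earlier results of these data known. Values in every library are given for Per1, Per2, Arntl, Dbp, Nr1d1, Nr3c1, Nr3c2, Fkbp5, Sgk1, Tsc22d3, Mt1 and Mt2 and for the 6 clock and 6 corticosteroid members with the smallest p. Clock, Klf9 and Ciart were added after their values were seen. From other lists, called genes and up to 3 with the smallest p are named. Crh and Avp were added after their values were seen.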

Additional observations from a re-analysis of the deposited data

Results flagged for a closer look

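In 6 of the 70 groups of 4 libraries examined (35 genes in 2 groups), 1 library stood far from the other 3 by Dixon's criterion, which chance meets in about 1 of 20 groups, or 3.5 here. Per3 was low in vehicle F2, at 45.6 CPM with the other 3 at 65.8 to 68.8 CPM. Cry1 was low in PLX3397 F2, at 17.8 CPM against 21.98 to 22.18 CPM, and so was Nr3c2, at 18.2 CPM against 24.6 to 25.2 CPM. Bhlhe41 was low in PLX3397 F1, at 36.2 CPM against 43.9 to 45.4 CPM. Hlf was high in PLX3397 M2, at 88.7 CPM against 59.6 to 63.2 CPM. Fkbp5 was high in vehicle F1, at 47.2 CPM, where the rest lay at 36.2 to 37.6 CPM. In Per1 and Ciart the libraries of females and of males separated in opposite directions after PLX3397. The female effect minus the male effect was -0.71 for Per1 and -0.64 for Ciart on the log2 scale, and neither passed with edgeR (adjusted p = 0.297 and 0.819).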

How the results depend on the processing

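The count of members called for PLX3397 against vehicle was 0 with edgeR and limma-trend under every filter, scaling, covariate and pseudocount tried, 3 with DESeq2, and 0 to 1 when 1 library was left out. DESeq2 called 2 members in males (Per1 and Zbtb16, beside 4.94% of all tested genes) and 1, Per1, for the difference between the sexes (0.852%), and 0 in females and for females against males. Leaving out a library gave 0 calls in these 4 comparisons, where an arm left with 1 library is assumed to vary like the others. The count over all genes was 362, but 79 with the replicate label as a block, 123 without vehicle F1 and PLX3397 M2, 138 to 361 without 1 library and 1099 with DESeq2. With the replicate block 0 members were called. Libraries with the same label correlated weakly, at 0.03 to 0.10, in their deviations from the group mean, yet 3 of 4 correlated best with their own label. Whether the labels pair the samples cannot be told from these values, and the main test did not pair them. The median of the 19 clock genes ran from 0.02 to 0.10 and that of the 13 induced genes from 0.21 to 0.36 without 1 library.

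Signs near 0 turned in some settings. Nfil3 had 0.00093 with filterByExpr and 0.0060 with every gene kept, and Cry2 had -0.0039 with library size only. Without vehicle F1 and PLX3397 M2, Clock had -0.012, Cry2 -0.025 and Ciart -0.11. Without 1 library the fold changes ran from -0.0249 to 0.0413 for Cry2, -0.0570 to 0.0334 for Nfil3, -0.20 to 0.0244 for Sgk1, -0.0578 to 0.18 for Per3, -0.0302 to 0.33 for Clock, -0.0499 to 0.18 for Per1, -0.0114 to 0.13 for Cry1, -0.0849 to 0.17 for Ciart, -0.0040 to 0.11 for Bhlhe41 and -0.0176 to 0.0778 for Rora. The cause was not tested. No other member changed sign in a setting that tested it (Plin4 was left out at a mean FPKM of at least 1). With 4 libraries a group, the spread between libraries sets the precision for most of these genes. Plin4, the lowest per length, had a mean count of 375.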
